A study of Mus musculus with 2 samples.

Results

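The 10 genes described here are markers and products of basophils, mast cells and eosinophils, the granulocytes and tissue cells of allergic and anti-parasite responses. They were chosen by name, as Prss34, Mcpt8, Cpa3, Fcer1a, Ms4a2, Hdc, Kit, Prg2, Prg3 and Epx, and their probes were found through the accession that the array files give for each probe. Each of the 10 had 1 probe printed in 1 spot, out of 20655 genes with a named probe, and 7 of the 10 had a signal well above background on at least 1 array. Spleens of male mice were profiled on 2 one-colour arrays. One carried RNA from untreated, healthy Loxl3+/+ (wild-type) mice and the other RNA from untreated, healthy Loxl3-/- (knockout) mice. The labels state neither the age and strain of the animals, nor how the allele was made, nor whether animals were pooled.

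Each group has a single array, so no difference could be checked against replicates and no test was run. Values describe these 2 arrays. The ± error of a signal is the one that the scanner software computed for the spot, and that of a difference combines both arrays. For a probe printed in several spots the mean error was divided by the square root of their number, so it is smaller. It holds no variation between animals. A signal is the background-corrected brightness of a spot. A difference is the log2 signal of the Loxl3-/- array minus that of the Loxl3+/+ array after each array was scaled on its 75th percentile, because the Loxl3-/- array was brighter at that percentile by 1.44-fold. The Loxl3 probe gave 117 ± 16.4 on the Loxl3+/+ array and 125 ± 18.5 on the other, a difference of −0.43 ± 0.29. Nothing in the sources used here says whether the deletion covers that probe, so it checks nothing, and each array is named by the genotype on its label. All 15 B cell, T cell and macrophage genes examined, among them Cd3e and Spic, were well above background on both arrays. So were all 16 pancreas acinar genes examined, so passing that call does not by itself establish the tissue, and spleen is taken from the label.

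Basophils and mast cells carry the high-affinity receptor for IgE on their surface, and its crosslinking by antigen releases histamine and proteases from their granules. Eosinophils store toxic basic proteins and a peroxidase in theirs. All 3 cell types arise from blood progenitors, with GATA and C/EBP factors among the transcription factors that steer these lineages. Each makes up a small share of the spleen, so their transcripts are rare in whole-spleen RNA. In RNA from a whole tissue, fewer cells of a type and less RNA per cell cannot be told apart.

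On the Loxl3-/- array 4 of the 10 genes were 2-fold or more lower and none was 2-fold higher. The 4 were the basophil protease genes Prss34 and Mcpt8, the histamine synthesis gene Hdc and the eosinophil granule gene Prg3. Cpa3, Prg2 and Kit were within 2-fold, Kit on the higher side. Fcer1a, Ms4a2 and Epx were near background on both arrays, by the scanner software's call. Among all 13714 genes measured, 1.98% were 2-fold or more lower and 2.11% were 2-fold or more higher. Scaling on each array's median changed these shares to 2.76% and 1.76%, and scaling on probes above background on both arrays changed them to 1.33% and 3.24%. Without scaling they were 0.583% and 10.2%, and 2 members were then 2-fold lower and 1 was 2-fold higher. Among the 6171 genes in the measured members' range of Loxl3+/+ signals, 80.5 to 1179, the shares were 2.46% and 2.79%. Prss34 and Mcpt8 entered the measured set through the Loxl3+/+ array alone, as did 1.36% of all genes, so their direction is fixed by that filter. Among the 5 members above background on both arrays, Hdc and Prg3 were 2-fold lower and the other 3 were not. Of all genes above background on both arrays, 1.79% were 2-fold or more lower.

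**Figure D1:**
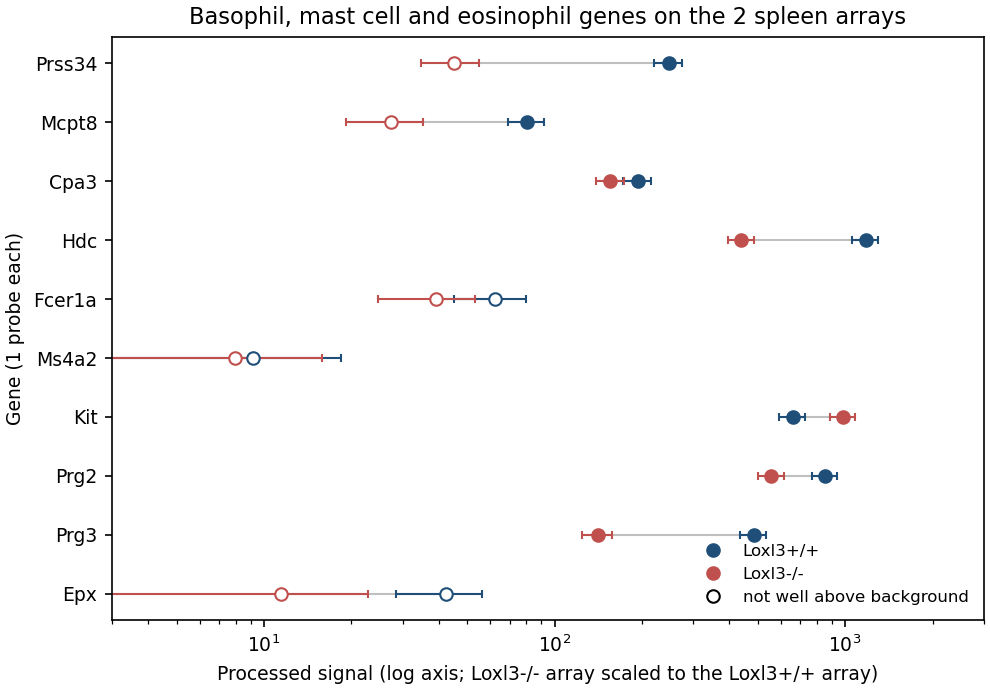
Processed signal of each of the 10 genes on the Loxl3+/+ (blue) and the Loxl3-/- (red) array, on a log axis, with the Loxl3-/- values divided by the 1.44-fold difference in overall brightness. Bars are the scanner software's error per spot, cut at the axis where they reach lower, and open circles were not well above background. The Prss34, Mcpt8, Hdc and Prg3 points lie farthest apart among genes with a filled circle, and Kit is the one whose Loxl3-/- point lies to the right.

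The stretches before the start of the 4 lower genes, and of Cpa3, the mast cell and basophil gene that differed little, are printed to show which of a set of short words they hold. They are the 250 bases before the annotated start, from RefSeq on the build GRCm38.p6, read in the direction of the gene. Capitals mark words that GATA factors are known to bind, namely the word AGATAA, the word AGATAG, the word TGATAA and the word TGATAG, searched on both strands, so that a word on the other strand appears as its reverse complement.
Prss34, chr17:25298144-25298393, plus strand: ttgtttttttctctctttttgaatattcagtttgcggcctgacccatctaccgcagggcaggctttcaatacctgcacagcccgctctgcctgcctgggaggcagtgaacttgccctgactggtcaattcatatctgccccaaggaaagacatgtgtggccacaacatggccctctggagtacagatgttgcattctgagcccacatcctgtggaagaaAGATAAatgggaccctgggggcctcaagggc
Mcpt8, chr14:56085198-56085447, minus strand: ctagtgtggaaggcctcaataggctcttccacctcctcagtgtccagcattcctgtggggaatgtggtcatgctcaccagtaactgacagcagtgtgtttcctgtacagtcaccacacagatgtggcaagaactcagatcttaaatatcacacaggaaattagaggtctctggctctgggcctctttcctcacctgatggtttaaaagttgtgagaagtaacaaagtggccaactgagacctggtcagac
Hdc, chr2:126618679-126618928, minus strand: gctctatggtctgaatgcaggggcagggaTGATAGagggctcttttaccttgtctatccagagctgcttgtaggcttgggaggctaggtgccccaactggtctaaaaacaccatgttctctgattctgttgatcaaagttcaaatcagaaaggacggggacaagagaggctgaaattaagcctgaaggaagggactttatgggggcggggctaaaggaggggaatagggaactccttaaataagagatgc
Prg3, chr2:84987965-84988214, plus strand: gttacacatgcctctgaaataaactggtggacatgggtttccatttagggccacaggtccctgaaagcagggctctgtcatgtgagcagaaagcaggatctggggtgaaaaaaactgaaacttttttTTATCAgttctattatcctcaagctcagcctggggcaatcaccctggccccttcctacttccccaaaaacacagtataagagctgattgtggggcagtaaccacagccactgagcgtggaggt
Cpa3, chr3:20242182-20242431, minus strand: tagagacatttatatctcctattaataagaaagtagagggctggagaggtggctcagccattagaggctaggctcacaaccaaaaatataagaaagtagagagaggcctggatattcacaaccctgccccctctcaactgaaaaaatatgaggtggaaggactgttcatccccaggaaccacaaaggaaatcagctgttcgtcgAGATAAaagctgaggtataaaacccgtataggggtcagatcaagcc

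Of the 9 members with a promoter in the table, 6 held at least 1 of these words in the 250 bases, against 26.5% of all 32851 promoters of that length. Members were counted per gene and the share over all promoters per promoter, and they were not matched for G and C content. Prss34 held AGATAA 31 to 26 bases before its start and Cpa3 held the same word 46 to 41 bases before. The Hdc word, TGATAG, began 221 bases before the start. The Prg3 word, TGATAA, lay on the other strand 123 to 118 bases before. Ms4a2 held 3 words and Fcer1a 1, although neither gene had a signal well above background. Mcpt8 and Epx held none in this window, and neither did Kit, whose window was richer in G and C (70.8%) than that of any other member in the table. At least 1 of the words was therefore present before 3 of the 4 lower genes, a different word before each. Cpa3, which was not 2-fold lower, held the same word as Prss34. A match is a description of letters and not a site shown to be bound.

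**Figure D2:**
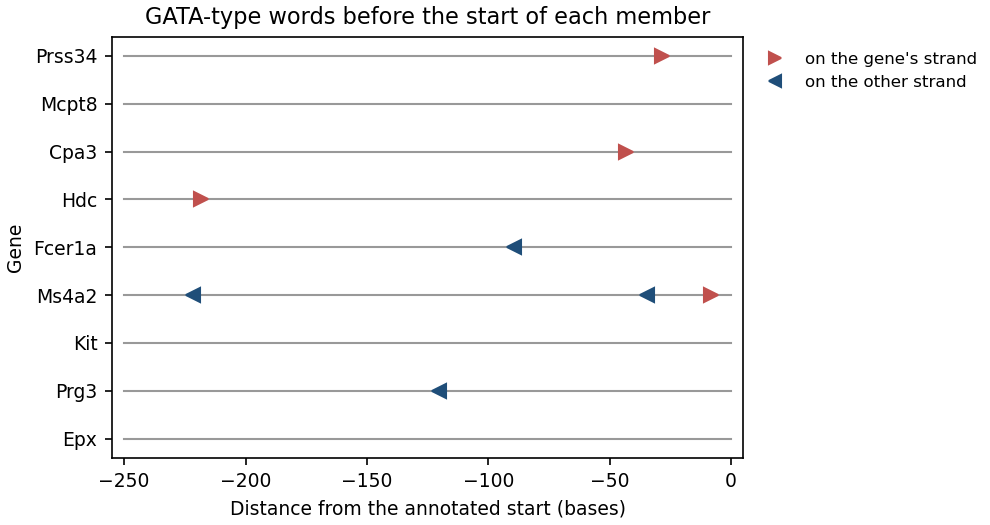
Position of each GATA-type word in the 250 bases before the annotated start of the 9 members with a promoter in the RefSeq table, with distance in bases on the x axis and 1 line per gene. Red triangles are words on the gene's strand and blue triangles words on the other strand. Ms4a2 has 3 words, Prss34, Cpa3, Hdc, Fcer1a and Prg3 have 1 each, and Mcpt8, Kit and Epx have none.

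The basophil protease genes were well above background on the Loxl3+/+ array and not on the Loxl3-/- array. Prss34, also known as mast cell protease 11, is a tryptase-like serine protease of basophils. Its signal was 248 ± 26.9 on the Loxl3+/+ array and 64.5 ± 14.6 on the Loxl3-/- array, where it was not well above background. The scaled difference was −2.46 ± 0.36, or 5.52-fold lower. This is the measured value and no minimum, because the dim signal exceeded the lowest one well above background. With normexp background correction the Prss34 difference was −1.46 on the log2 scale in place of −2.46. That setting also adds an offset of 50 to every signal, which by itself shrinks the differences of dim probes. Mcpt8, a granzyme-like protease that marks mouse basophils, gave 80.5 ± 11.6 and 39.2 ± 11.7, again clear of background only on the first of them. It was at least 2.10-fold lower after scaling. The Mcpt8 bound fell short of 2-fold in 3 of the 10 alternative settings that measured it, at −0.54 without scaling, −0.75 with normexp correction and −0.92 with scaling on probes above background on both arrays.

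Hdc encodes histidine decarboxylase, the enzyme that makes histamine in mast cells and basophils, and it is also known in immature myeloid cells. Its signal was 1179 ± 119 on the Loxl3+/+ array and 631 ± 64.8 on the Loxl3-/- array. The Loxl3+/+ value was the brighter one even before scaling, and the scaled difference was −1.42 ± 0.21, or 2.68-fold lower. Without any scaling the difference was −0.90, short of 2-fold.

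The granule protein genes of mast cells and eosinophils differed among themselves. Cpa3, carboxypeptidase A3 of mast cell and basophil granules, gave 193 ± 21.1 and 224 ± 25.0, a scaled difference of −0.31 ± 0.23. It turned to 0.21 without scaling, so its direction depends on the scaling. Prg3, encoding a homologue of eosinophil major basic protein, gave 484 ± 49.2 and 203 ± 23.7. The scaled difference was −1.78 ± 0.22, or 3.43-fold lower. Prg2, encoding major basic protein itself, gave 854 ± 85.9 and 801 ± 80.9, a scaled difference of −0.62 ± 0.21. Prg2 and Prg3 are adjacent genes on chromosome 2, and on these arrays the scaled difference of Prg3 was larger in size by more than the software's errors. Epx, the eosinophil peroxidase gene, gave 42.3 ± 13.9 and 16.4 ± 16.4 and failed the software's call for being well above background on both arrays, so no fold is given.

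The receptor chains among the members were dim. Fcer1a, the chain that binds IgE, gave 62.4 ± 17.3 on the Loxl3+/+ array and 56.1 ± 20.5 on the Loxl3-/- array. Ms4a2, the signal-amplifying beta chain, gave 9.19 ± 9.16 and 11.4 ± 11.4, about the size of its own error. Both fell short of the software's call on each array, so no difference in the receptor's own chains was measurable here. Fcer1g, the gamma chain that many Fc receptors of myeloid cells share, was bright at 8426 and 12425, with a scaled difference of 0.04 ± 0.20.

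Kit was the single member on the higher side. It encodes the receptor for stem cell factor, carried by mast cells and by blood progenitors, and also by cells outside the blood. Its signal was 660.2 ± 67.0 on the Loxl3+/+ array and 1415 ± 142 on the Loxl3-/- array, a scaled difference of 0.58 ± 0.21, or 1.49-fold. Without scaling the ratio was 2.14, past 2-fold, but the median of all genes then stood at 0.43. Relative to that median under each setting, Kit was higher by 0.59 to 0.71 in all 11 alternatives. Kitl, encoding its ligand stem cell factor, was at −0.44 ± 0.21, with signals of 514 and 545.

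**Figure D3:**
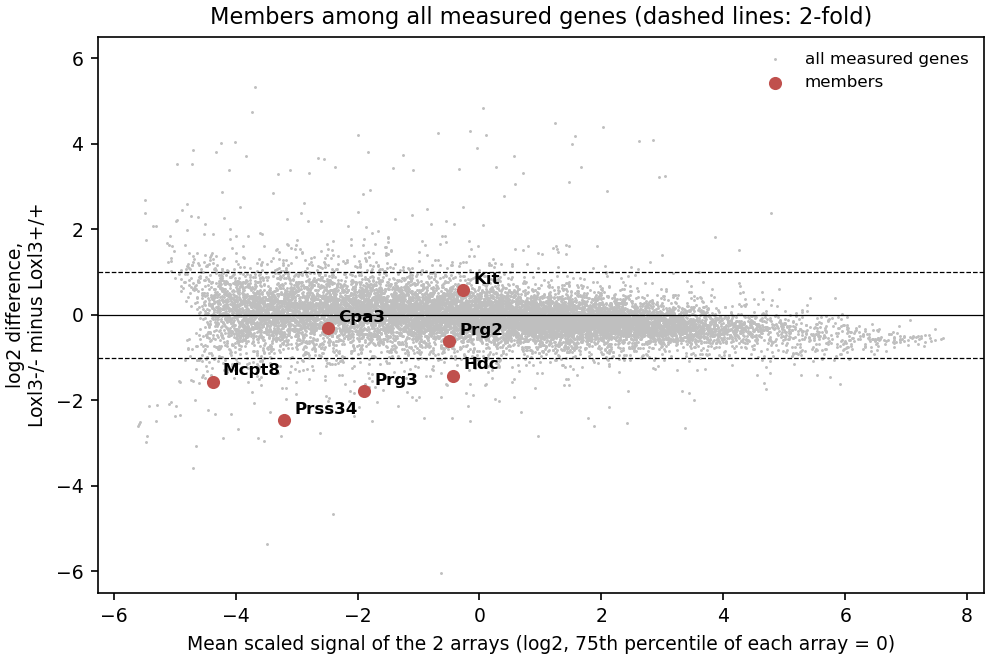
Mean scaled signal (x axis, log2) against the log2 difference (y axis) for all measured genes in grey, with the 7 measured members in red and dashed lines at 2-fold. Prss34, Mcpt8, Prg3 and Hdc lie below the lower line, and Cpa3, Prg2 and Kit lie between the lines. Prss34 and Mcpt8 are drawn at their measured difference, which for Prss34 equals its bound, and 2 grey points fall outside the axis.

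Lists of other genes of the same 3 cell types had medians close to that of all genes. These lists were written with earlier results of these data known, and many of their genes are also made by other spleen cells. Of 16 other basophil genes, 8 were measured, none passed 2-fold in either direction, and the median difference was 0.01 against −0.09 for all genes. Il4, the type 2 cytokine gene, had the lowest value there, −0.68 ± 0.08. Its probe is printed in 10 spots, and over the 8 spots without a flag on either array the difference was −0.67 ± 0.07 (SD over spots), with signals of 214 to 242 on the Loxl3+/+ array and 179 to 227 on the other. Among the brightest of the list, the granule membrane gene Cd63 was at −0.44, Ifitm1 at 0.09, Alox5ap of leukotriene synthesis at −0.13 and the chemokine gene Ccl9 at −0.02. The 8 genes not measured, among them Cd200r3, a receptor gene of basophils and mast cells with signals of 15.2 and 19.9, were dim on both arrays.

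Of 18 other mast cell genes, 10 were measured and 3 were 2-fold lower. Rab27b, which encodes a GTPase of granule release in mast cells and platelets, gave 882 and 333 with its brighter probe, a difference of −1.93 ± 0.21. Its second probe was at −2.27 ± 0.23. Slc6a4, the serotonin transporter gene, gave 489 and 242, a difference of −1.54 ± 0.22. Tpsb2, a tryptase gene of mast cells, gave 258 and 162 with the probe above background, a difference of −1.20 ± 0.27, and its second probe failed the software's background call on both arrays. Without scaling Tpsb2 was at −0.68, short of 2-fold, and the list then held 2 such genes, as it did with normexp correction. The brightest member of the list, the granule proteoglycan gene Srgn, was at 0.23, and the heparin synthesis gene Ndst2 was at −0.01. Il1rl1, the interleukin 33 receptor gene, was at −0.50. The connective tissue mast cell protease gene Mcpt4 was at 0.50 ± 0.24, and Mcpt1, Mcpt2, Mcpt9, Cma1, Tpsg1, Mrgprb1 and Mrgprb2 did not reach the background call on either array. The list median was −0.14.

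Of 12 other eosinophil genes, 11 were measured and 1 was 2-fold lower. Il5ra, the receptor chain for the eosinophil growth factor interleukin 5 and also a gene of some B cells, gave 1307 and 871, a difference of −1.11 ± 0.21. Il5ra was within 2-fold without scaling and with scaling on probes above background on both arrays. Ccr3, the eotaxin receptor gene, was at −0.58 ± 0.21 and Siglecf, a surface lectin of eosinophils, at −0.48 ± 0.29. The bright genes of the list, Pirb, Adgre1, Ear2 and Adgre4, were at −0.09, 0.06, −0.40 and 0.17, and they are known in macrophages as well. Ear genes are close relatives whose probes may share signal. The list median was −0.14.

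Of 14 signalling genes below the IgE receptor 13 were measured, with a median of −0.03, and 1 was 2-fold lower. Lat, the adaptor of T cells and mast cells, was at −1.77 ± 0.20, with signals of 9694 and 4081, while the kinase gene Syk was at −0.07, Plcg2 at −0.06 and Vav1 at −0.45 (brighter probe) and 0.26 (second probe). Inpp5d, a phosphatase that restrains the receptor, was at 0.52, about the size of the Kit difference. Plcg1 was well above background only on the Loxl3-/- array, which fixes its direction, with a measured difference of 0.62 ± 0.40, or 1.54-fold. Growth factor and receptor chain genes had a median of 0.04, with Csf2ra at 0.06, Csf2rb at 0.02, Csf2rb2 at 0.19 and Crlf2 at −0.19. None of the 6 measured passed 2-fold, and Il3, Il5 and Csf2 were not well above background on either array.

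Transcription factor genes of these lineages were mixed. Of 14 measured, 3 were 2-fold lower and none was 2-fold higher. Cebpe, of granulocyte maturation, was at −2.49 ± 0.21, with signals of 2070 and 530.3. Gata1, which eosinophils, mast cells, red cells and platelets use, was at −1.12 ± 0.21, and Tal1, of the red cell and platelet lineages, at −1.15 ± 0.21. Without scaling Cebpe was the 1 gene of the list still 2-fold lower, with Gata1 at −0.60 and Tal1 at −0.62, and over the other alternatives the number ranged from 2 to 4. Gata2, needed by basophils and mast cells, was at 0.01 ± 0.21, with signals of 281 and 408. Mitf, of mast cells and macrophages, was at −0.28 by its brighter probe and at −1.17 by its second. The bright genes Cebpb, Stat5b and Xbp1 were at −0.60, −0.28 and 0.20, and Stat5a at −0.91. Among 12 progenitor genes Ms4a3, a gene of granulocyte-monocyte precursors and basophils, was the only one at 2-fold, at −2.48 ± 0.23 with signals of 678 and 175. Scaling on each array's median brought the number to 2. The bright genes Ly6a, Cd48, Cd34 and Hoxa9 were at −0.66, 0.13, −0.37 and −0.35.

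**Figure D4:**
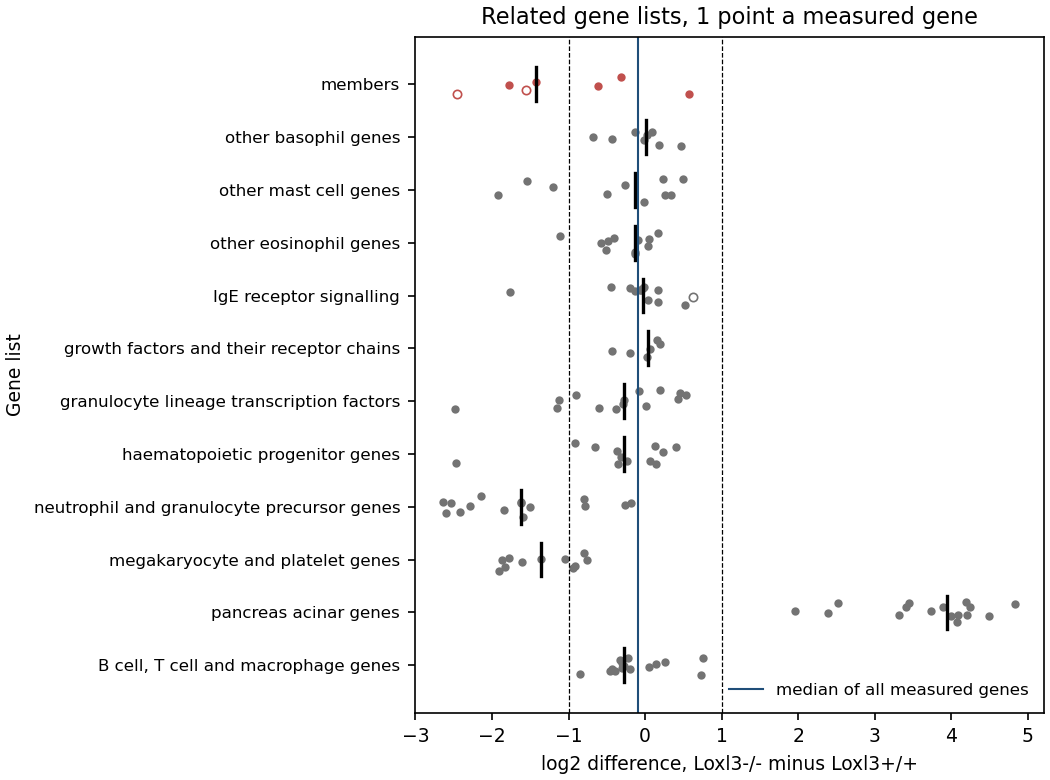
Log2 difference (x axis) of each measured gene of the members and 11 related lists (1 row each), with a black bar at each list's median, a blue line at the median of all measured genes and dashed lines at 2-fold. Open circles are genes above background on 1 array alone, drawn at their measured difference. The members' bar, at −1.42, counts Prss34 and Mcpt8 at their measured difference, and over the 5 members above background on both arrays the median was −0.62. Pancreas genes lie far to the right.

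Genes of other cell types also differed between these arrays. Of 15 measured neutrophil and granulocyte precursor genes, 11 were 2-fold lower with a median of −1.62, and their summed signal was 2.82-fold lower after scaling. Of 11 measured megakaryocyte and platelet genes, 7 were 2-fold lower with a median of −1.36, and their summed signal was 2.96-fold lower. All 16 pancreas acinar genes were 2-fold or more higher with a median of 3.95 and a summed signal 9.41-fold higher. All measured genes of these 3 lists were well above background on both arrays. The 5 members above background on both arrays had a median of −0.62. With Prss34 and Mcpt8, whose direction the filter fixes, added at their bound, the median of the 7 was −1.07. The summed measured signal of the 7, without bounds, was 1.57-fold lower after scaling. The part of these other cell types in the members' differences was not tested.

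Several members lie in clusters of related genes, and the neighbours on the chromosome did not all differ in the same direction. The comparison covered the 5 protein-coding genes on each side in the RefSeq order. Mcpt8 lies beside Ctsg, the cathepsin G gene of neutrophil precursors, at −2.14 ± 0.21, and on its other side beside Mcpt4. Tpsb2 is the third gene after Prss34. Between them lie Prss28, at −0.43 ± 0.26, and Prss29, at 3.40 ± 0.23, with signals of 141 and 2129. Prss29 was singled out after its values were seen. Ms4a2 lies beside Ms4a3, and Cpa3 beside Cpb1, a pancreatic carboxypeptidase gene at 3.45 ± 0.20. Epx lies in a group with the peroxidase genes Mpo, at −2.41 ± 0.20, and Lpo, at 0.45 ± 0.21. Kit and Pdgfra, its neighbour and a receptor kinase gene of mesenchymal cells, were both on the higher side, Pdgfra at 0.54 ± 0.06. On the other side of Kit lie the receptor kinase gene Kdr, at −0.002 ± 0.06, and Srd5a3, at −0.01 ± 0.21.

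**Figure D5:**
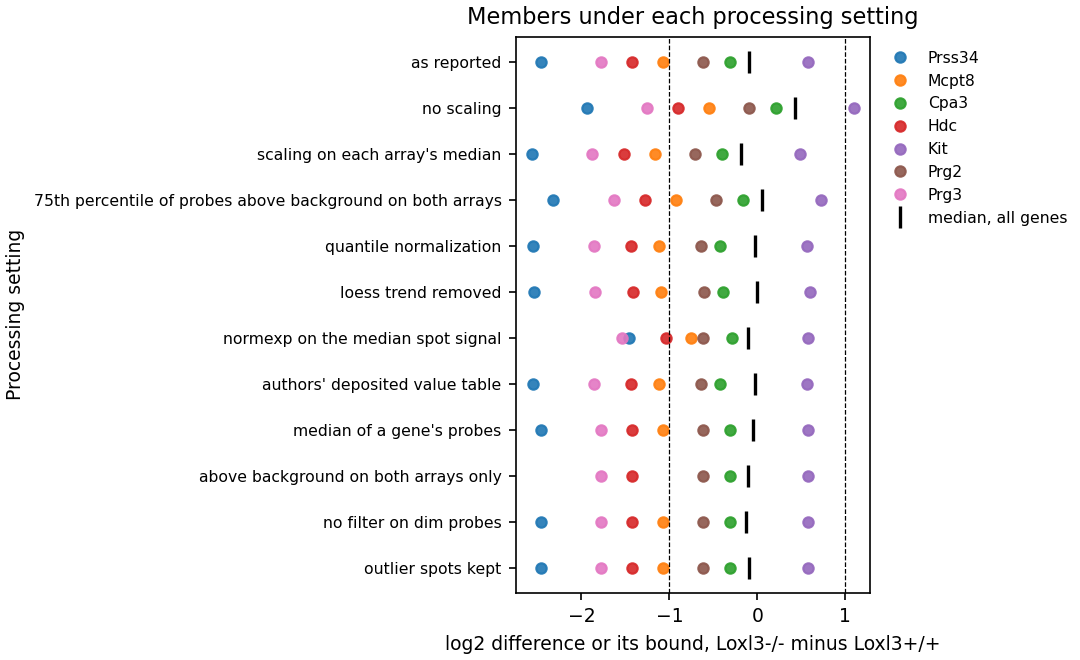
Log2 difference of each measured member, or its bound for Prss34 and Mcpt8, as reported and under 11 alternative settings (rows), with the median of all genes as a black bar and dashed lines at 2-fold. Prss34 and Prg3 stay left of the lower line wherever they were measured, Hdc crosses it without scaling, and Mcpt8 lies to its right in 3 settings.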

How the data were processed

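The authors deposited 1 scanner file per array with linear intensity values per spot, made with the protocol GE1_1100_Jul11 of Agilent Feature Extraction 11.0.1.1 on a design of build mm9, per the file headers. The table of processed values that the authors deposited holds log2 values, with a median of 6.71 in both columns. Its processing was not named in the sources used here. It gave the same counts of genes at 2-fold as quantile normalization of the scanner signals, 265 lower and 269 higher. Groups come from the genotype in the labels. Spots flagged as outliers (110 and 132) and controls were left out, log2 processed signals were averaged per probe, and each array's 75th percentile was subtracted. Accessions named 27226 of 39420 probes through RefSeq (GRCm38.p6). A gene stood by its brightest probe among those well above background on at least 1 array. Where that held on 1 array only, the difference is a bound, computed against the larger of 2 signals of the dim array, the probe's own and the lowest well above background. Where the probe's own signal is the larger, the bound equals the measured difference and is not a minimum. Over 268 probes printed 10 times, the difference had a median SD of 0.11 between spots. The number of arrays limits the precision. All members were named, and related genes were named at 2-fold or among the 4 brightest of a list, with any others named added after their values were seen. Members and lists were chosen with earlier results of these data known. The calculation was tested on simulated data, with changes given only to genes that had a probe brighter than those of Prss34, Mcpt8 and Cpa3. Both simulated arrays carried the same background calls, so the bounds were not tested. Alternatives used limma 3.58.1 and statsmodels 0.14.6. The planned normexp setting was run on median in place of mean spot signals, with an offset of 50.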

Additional observations from a re-analysis of the deposited data

How the results depend on the processing

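The direction of Hdc, Prg2, Prg3 and Kit was the same under all 11 alternatives, and Cpa3 turned positive without scaling. The direction of Prss34 and Mcpt8 is fixed by the filter and shows no stability. Prss34 was 2-fold lower in 10 of 10 settings, Prg3 in 11 of 11, Hdc in 10 of 11 and Mcpt8, by its bound, in 7 of 10. These settings are not separate checks. Each member has 1 probe in 1 spot, so settings on probe choice, background filter or outlier spots could move its value little or not at all. The authors' values gave nearly the same differences as quantile normalization, with Hdc at −1.44 in both. Without scaling, 2 members were 2-fold lower, 1 was 2-fold higher and the median of the measured members was −0.54, while the median of all genes moved from −0.09 to 0.43. With normexp correction on median spot signals, chosen after seeing the data, the members' median was −0.75. Restricting to genes above background on both arrays left 5 members, with a median of −0.62, since that filter removes Prss34 and Mcpt8. Of these 5 members, 2 were 2-fold lower, against 1.79% of all genes under that filter. Without any filter on dim probes Epx was also counted, and 5 of 10 were 2-fold lower, against 3.2% of 20655 genes. Epx was counted there on signals that failed the background call on both arrays, with a log2 error of 1.52. Under the other 7 settings the members' counts were within 1.5 times those reported and their median within the median software error. The planned normexp setting on mean spot signals was not run. No paired analysis was possible because each group has 1 array. Signal near background limits the values of Prss34, Mcpt8, Fcer1a, Ms4a2 and Epx.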

Other observations

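Further genes of histamine and lipid mediator handling and of type 2 responses were examined in lists written after the members' values were seen. Of 15 mediator genes 11 were measured, with a median difference of −0.36. Cysltr2, a cysteinyl leukotriene receptor gene, gave 119 on the Loxl3+/+ array and 85.5 on the Loxl3-/- array. Only the first was well above background. The scaled signal was 2.01-fold lower, with a log2 error of 0.43. This is the measured value and no minimum, because the dim signal exceeded the lowest one well above background. The background filter fixes the direction of Cysltr2, and without scaling its difference was −0.48, short of 2-fold. Alox5, the enzyme gene that starts leukotriene synthesis, was at −0.81 ± 0.21, Ptgs1 at −0.46 ± 0.21 and Ptgds, a prostaglandin D2 synthase gene, at −0.48 ± 0.21. Hnmt, which degrades histamine, was at −0.02 ± 0.23, and the receptor gene Hrh1 was at 0.12 ± 0.21 with its brightest probe.

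Of 10 type 2 response genes 7 were measured, with a median of 0.19. Fcer2a, the low-affinity IgE receptor gene of B cells, was higher on the Loxl3-/- array, with signals of 519 and 1633 and a difference of 1.13 ± 0.21. Il13ra1 was at 0.74 ± 0.27, Gata3 at 0.19 ± 0.21 and Stat6 at 0.09 ± 0.20 with its brightest probe, while its other probes above background gave 0.02 ± 0.28 and 1.52 ± 0.28.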
